A study of Mus musculus with 4 samples.

Results

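The miR-15/16 and miR-322/miR-503 family of microRNAs (miRNAs) was examined in small RNA from exosome-enriched preparations of the C8-D1A culture supernatant. Members were taken by name alone, as every listed mature miRNA, from either arm, of the hairpins miR-15a, miR-15b, miR-16, miR-195a, miR-322, miR-497a and miR-503. Of 389 mature miRNAs listed, 5 met this rule: mmu-miR-16-5p, mmu-miR-503-5p, mmu-miR-503-3p, mmu-miR-195a-3p and mmu-miR-322-3p. C8-D1A is an established mouse astrocyte line, labelled as wild type, and 4 libraries made from its vesicles were compared. The 2 control libraries came from cells held at 37 °C, for 8 h by the sample labels and for 2 h by the culture methods. The 2 heat stress libraries came from cells held at 42 °C for 2 h and rewarmed at 37 °C for 6 h. All of the material is RNA outside the cells. The values are scaled per library, so they are relative amounts and give neither the number of vesicles nor the amount of a miRNA per vesicle. The medium held fetal bovine serum, and reads of a sequence that cattle and mice share could have come from either source.

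A miRNA hairpin is cut to a short duplex with a 5p and a 3p strand, and the strand taken up by an Argonaute protein pairs with target messenger RNAs mainly through its seed near the 5′ end. The miR-15/16 family is defined by the seed of its 5p strands and is known for repressing cyclins, other cell cycle genes and the anti-apoptotic gene Bcl2. Loss of the pair made by miR-15a and miR-16 is a classic lesion of chronic lymphocytic leukaemia. The miR-322/miR-503 cluster on the X chromosome, whose miR-322 is the rodent counterpart of human miR-424, is known for driving cells out of the cell cycle during differentiation. The 3p strands come from the same hairpins but carry other seeds, so they are relatives by origin and not by target pairing.

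The mature sequences (RefSeq, GRCm38.p6) show which of the listed members carry the family seed. Bases 2 to 8, counted from the 5′ end, are in capitals.
miR-16-5p: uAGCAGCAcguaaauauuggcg
miR-503-5p: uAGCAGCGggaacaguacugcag
miR-503-3p: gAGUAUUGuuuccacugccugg
miR-195a-3p: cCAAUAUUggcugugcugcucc
miR-322-3p: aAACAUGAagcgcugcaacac

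The 2 listed 5p strands differ at the last seed base, with 6 of 7 seed positions alike, and over the whole strands 12 of 22 aligned positions were the same without gaps. The 3p strands matched the seed of miR-16-5p at 0 of 7 positions for miR-195a-3p, 3 for miR-503-3p and 4 for miR-322-3p. The 5p strands of the other hairpins are not among the listed miRNAs, and they are shown because they are the usual carriers of the seed.
miR-15a-5p: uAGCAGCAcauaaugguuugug
miR-15b-5p: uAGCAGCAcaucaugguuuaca
miR-195a-5p: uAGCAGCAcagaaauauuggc
miR-322-5p: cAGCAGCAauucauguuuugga
miR-497a-5p: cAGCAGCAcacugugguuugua

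The closest of these to miR-16-5p was miR-195a-5p, with 19 of 22 positions alike, and the most distant was miR-497a-5p, with 11. In RefSeq, 15 mature names belong to the hairpins of the family, and 5 of the 5 listed members were matched to a sequence. Across all 1679 mouse mature names there, 11 had the same bases 2 to 7 as miR-16-5p, and of these only miR-16-5p and miR-503-5p were listed in the libraries. The 4 names outside the family that had these bases (miR-195b, miR-6342, miR-6353 and miR-6419) were not listed. For 2 of the hairpins a 3p strand was therefore the sole listed product: miR-195a-3p and miR-322-3p were listed without their seed-bearing partners. These partners are complementary to them over unbroken runs of up to 10 and 9 bases, respectively.

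The hairpins lie in 4 short clusters (GENCODE M21 on GRCm38, a build that may not be the one the authors used). Mature miR-16-5p is made from 2 hairpins, whose reads cannot be told apart. Mir16-1 lies at chr14:61631880-61631972 on the minus strand, within an exon of the long noncoding gene Dleu2 and 54 bases from Mir15a. Mir16-2 lies at chr3:69009902-69009996 on the plus strand, within an intron of the condensin subunit gene Smc4 and 66 bases from Mir15b. Mir195a lies at chr11:70235042-70235135 on the plus strand, 241 bases from Mir497. Mir503 (chrX:53053984-53054054) and Mir322 (chrX:53054255-53054349) lie on the minus strand with 200 bases between them, and Mir351 follows 630 bases further on. None of the hairpins of the 2 last clusters overlapped an annotated gene other than a miRNA gene.

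The deposited measurement is 1 normalized value per miRNA and library. All values of a library (100%) came out as whole multiples of 1 step, with a tolerance of 0.05, and a step was read as 1 sequenced read. On that reading the libraries held 43675 to 100933 reads on miRNAs, and 223 to 270 miRNAs were above 0. A value of 0 allows up to 3 reads, which is a value of 4.06 in control library 1, 2.35 in control library 2, 2.37 in heat stress library 1 and 3.00 in heat stress library 2. These limits, and the intervals given for reads, cover counting error only, since reads amplified by PCR are not independent molecules. Groups were compared with limma on log2(value + 1) for the 313 miRNAs whose mean value reached 1, and a miRNA was counted as higher or lower when it differed over 2-fold at p under 0.05 before adjustment. By this threshold 14 miRNAs were higher after heat stress (4.47% of those tested) and 9 were lower (2.88%). After Benjamini-Hochberg adjustment of the limma p-values 0 miRNAs were under 0.05, against 23 before adjustment, and 0.513 was the smallest value. Nothing in the labels says that the libraries came from separate cultures, so the p-values measure the spread between these libraries, which may be technical.

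Of the 5 members, miR-16-5p and miR-503-3p passed the threshold for higher and 0 passed for lower. Both of these were at 0 in both control libraries and above 0 in both heat stress libraries, as were 16 of all 389 listed miRNAs (4.11%), and miR-322-3p was the other member with that pattern. Both heat stress libraries lay above both control libraries for 4 members, against 52 of all 389 listed miRNAs (13.4%). The exception was miR-503-5p. The number of members past the threshold for higher was 1 without control library 1 (miR-195a-3p), when 15 of 300 miRNAs tested were higher, and 0 without control library 2, when 8 of 305 were. It was 3 without heat stress library 1, when 45 of 294 miRNAs were higher, and 2 without heat stress library 2, when 37 of 290 were. The median log2 change of the 5 members was 2.50, against 0.12 over all miRNAs tested, and with control libraries at 0 set to 3 reads the median ratio of the group means was 2.31. All 5 members passed the filter on low values, but miR-16-5p, miR-503-3p and miR-322-3p passed it through the heat stress libraries alone and so had to differ, and these counts and medians are a description of the members.

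The carrier of the family seed, miR-16-5p, had no read in either control library. Its value was 19.0 in heat stress library 1 (24 reads, exact 95% Poisson interval of the value 12.2 to 28.2) and 8.01 in heat stress library 2 (8 reads, 3.46 to 15.8). Both heat stress values lay above both controls. The lower end of the interval of heat stress library 2 lies under the value of 3 reads in control library 1 (4.06) and above that in control library 2 (2.35). At the mean heat stress value of 13.5 ± 7.75 (SD, n = 2), the control libraries would have held about 9.96 and 17.2 reads. With each control library set to 3 reads, the heat stress mean of miR-16-5p was 4.21 times the control mean, or 2.50 times without heat stress library 1. These ratios allow for counting error in the controls alone, not in the heat stress reads. The log2 change was 3.75 (SE 0.906, 95% interval 1.41 to 6.08), with an unadjusted p of 0.0093 and a Benjamini-Hochberg adjusted p of 0.513 by limma. With both controls at 0 the size of this change follows the pseudocount and the scaling: it was 6.96 with a pseudocount of 0.1 and 7.45 with library totals. Without either control library the change stayed at 3.75, but limma's unadjusted p was then 0.0544 (without control library 1) or 0.0550 (without control library 2), and the call ended.

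The other listed 5p strand, miR-503-5p, showed no such pattern. Its value was 2.71 in control library 1 (2 reads), 11.0 in control library 2 (14 reads), 11.9 in heat stress library 1 (15 reads) and 0 in heat stress library 2. The highest and the lowest value thus both came from heat stress libraries, and the groups overlapped. Control libraries averaged 6.83 ± 5.83 and heat stress libraries 5.93 ± 8.38 (SD, n = 2 each). The log2 change was −0.89 (SE 1.53, 95% interval −4.85 to 3.06) with an adjusted p of 0.926 by limma after Benjamini-Hochberg adjustment, and it turned to 0.95 without heat stress library 2. Summed over libraries and scaled to their size factors, the ratio of its reads was 0.835 (exact 95% interval 0.384 to 1.80), an interval that holds both a fall and a rise.

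Among the 3p strands, miR-503-3p, the opposite strand of the same hairpin, had no control read. Its value was 7.11 in heat stress library 1 (9 reads, exact 95% Poisson interval 3.25 to 13.5) and 4.00 in heat stress library 2 (4 reads, 1.09 to 10.3). Both values lay above the controls as measured, and the second of them lay just under the 3-read value of control library 1. The heat stress mean was 5.56 ± 2.20 (SD, n = 2), at which the control libraries would have held about 4.10 and 7.10 reads. With each control library at 3 reads, its heat stress mean was 1.73 times the control mean, or 1.25 times without heat stress library 1. These ratios do not allow for counting error in the heat stress reads. Both intervals reach under the 3-read value of control library 1 (4.06). The log2 change was 2.67 (SE 0.859, 95% interval 0.46 to 4.89), with an unadjusted p of 0.0269 and a Benjamini-Hochberg adjusted p of 0.612 by limma. It was 5.77 with a pseudocount of 0.1 and 6.25 with library totals. This call also ended without control library 1 (unadjusted p of 0.0538 by limma) or control library 2 (0.0531).

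MiR-195a-3p, the passenger strand of a hairpin whose 5p strand differs little from miR-16-5p, was read in 3 of the 4 libraries. Its value was 5.42 in control library 1 (4 reads), 0 in control library 2, 11.9 in heat stress library 1 (15 reads) and 15.01 in heat stress library 2 (15 reads). Both heat stress values were above both control values, and the lower of them was 2.19 times the higher control value. The mean was 2.71 ± 3.83 in controls and 13.4 ± 2.23 after heat stress (SD, n = 2 each), a ratio of 4.96, or 3.46 with control library 2 at 3 reads. The ratio of its reads, scaled to size factors, was 6.68 (exact 95% interval 2.35 to 26.1). The log2 change of 2.50 (SE 1.19, 95% interval −0.58 to 5.58) did not pass the threshold, with a Benjamini-Hochberg adjusted p of 0.686 by limma. It passed without control library 1 (3.84) and was 1.16 without control library 2, so the size rested on which control was kept.

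MiR-322-3p, the strand opposite the seed carrier of the X-linked cluster, was in effect a miRNA of 1 library. Its value was 0 in both control libraries, 0.790 in heat stress library 1 (1 read) and 14.0 in heat stress library 2 (14 reads, exact 95% Poisson interval 7.66 to 23.5). The 1 read in heat stress library 1 was within what a value of 0 allows in the controls. The heat stress mean was 7.40 ± 9.35 (SD, n = 2), or 2.31 times the mean of controls set at 3 reads each. That ratio does not allow for counting error in the heat stress reads, and heat stress library 1 alone lay under that floor. The log2 change of 2.37 (SE 1.28, 95% interval −0.93 to 5.68) did not pass the threshold, with a Benjamini-Hochberg adjusted p of 0.686 by limma. It passed with a pseudocount of 0.1 (5.15, unadjusted p of 0.0486 by limma), with library totals (5.62, 0.0494) and without heat stress library 1 (3.91, 0.00366), and it was not tested without heat stress library 2.

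**Figure D1:**
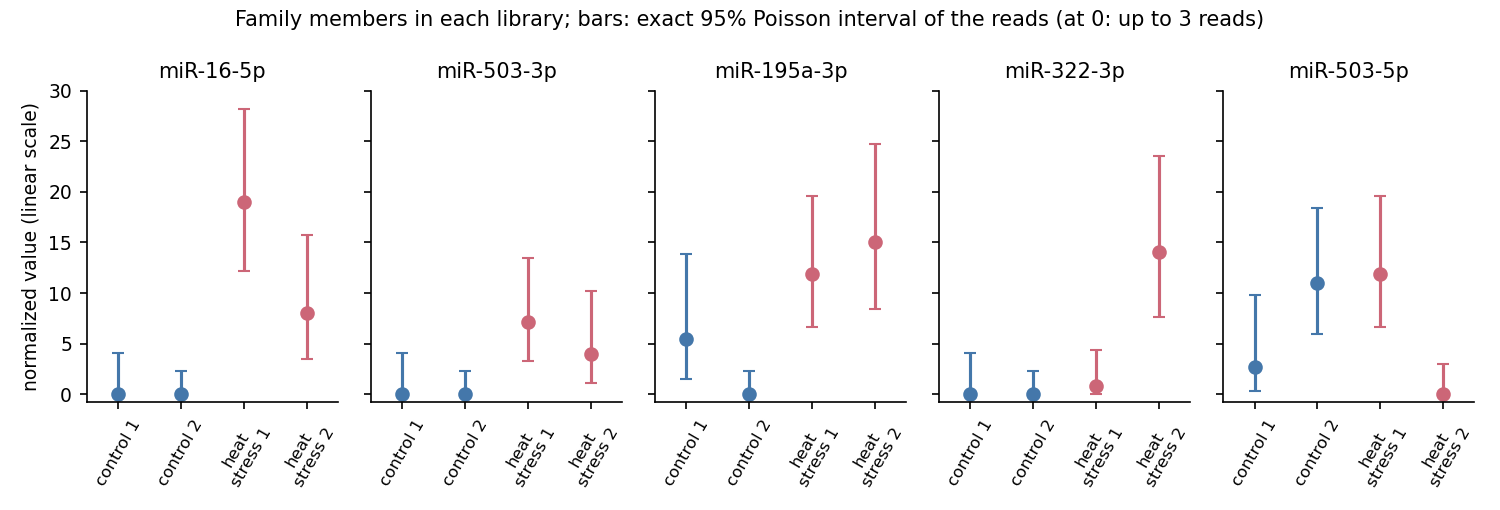
Normalized value (linear scale, vertical axis) of each listed family member in the 2 control (blue) and 2 heat stress (red) libraries, with exact 95% Poisson intervals of the reads as bars, which at a value of 0 reach the value of 3 reads. MiR-16-5p stands at 0, 0, 19.0 and 8.01, miR-322-3p is high in heat stress library 2 alone, and miR-503-5p overlaps between the groups.

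An exact permutation test over the libraries gave a two-sided p of 0.333 for each of the 4 members that did not overlap, which is the smallest p that 2 libraries against 2 allow, and of 1 for miR-503-5p. The smaller limma p-values rest on limma's model of the log2 values, which includes a variance partly shared across miRNAs. In the plot of level against change, the members sit in the low range, where the spread of changes is widest.

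**Figure D2:**
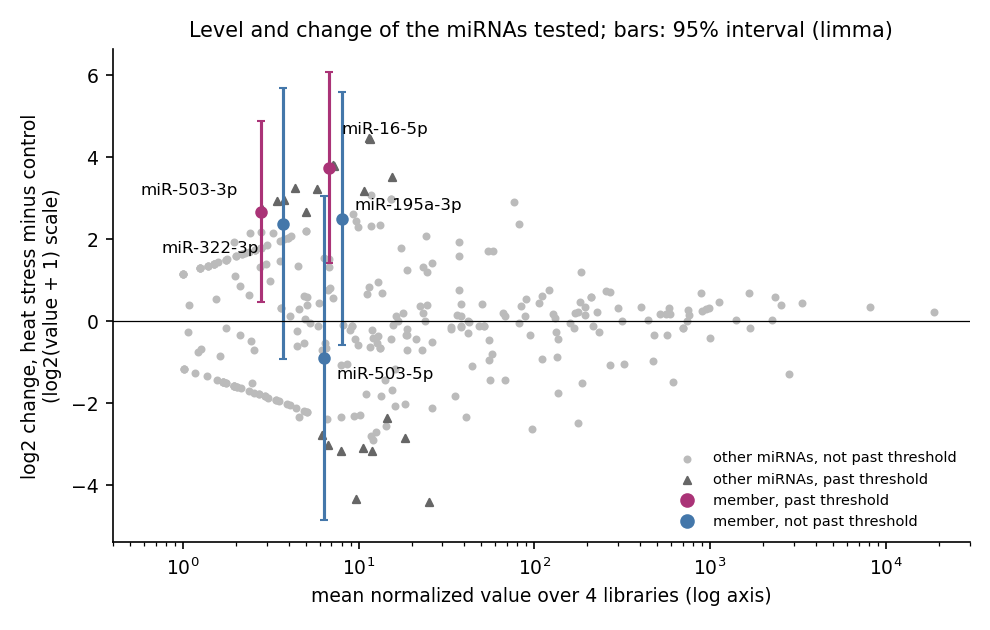
Log2 change after heat stress on the log2(value + 1) scale (vertical axis) against the mean normalized value over the 4 libraries (horizontal log axis) for the 313 miRNAs tested, with limma 95% intervals for the 5 members. The interval lies above 0 for miR-16-5p (1.41 to 6.08) and miR-503-3p (0.46 to 4.89) and spans 0 for the other members.

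Within the heat stress libraries the order of the mean values was miR-16-5p (13.5), miR-195a-3p (13.4), miR-322-3p (7.40), miR-503-5p (5.93) and miR-503-3p (5.56). No neighbours in this order differed by more than the larger of their SDs, so the order itself was not resolved. The strands are 21 to 23 bases long and no length scaling was applied. In heat stress library 1, miR-16-5p held rank 112 of the 250 miRNAs above 0 and miR-322-3p rank 221, and in heat stress library 2 the members lay between rank 129 of 270 (miR-195a-3p) and rank 207 (miR-503-3p). The members thus lay from near the middle of the abundance order downwards.

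Summed over the 5 members, the normalized value was 8.13 in control library 1, 11.0 in control library 2, 50.6 in heat stress library 1 and 41.0 in heat stress library 2. These sums rest on 6, 14, 64 and 41 reads. Both heat stress sums were above both control sums, with means of 45.8 ± 6.75 and 9.54 ± 2.00 (SD, n = 2 each) and a ratio of 4.80. MiR-16-5p, miR-503-3p and miR-322-3p add nothing to either control sum, so the separation of the sums is largely set by these members and is given as a description. Scaled by library totals in place of the deposited size factors, the sums were 137, 147, 634 and 647 CPM (reads scaled to the total on miRNAs), a ratio of 4.50. Without 1 member at a time the ratio ranged from 3.39 (without miR-16-5p) to 14.7 (without miR-503-5p). The composition also differed: the control sums held 2 members and 1 member above 0, and the heat stress sums held 5 and 4. In control library 2 the whole sum was miR-503-5p, the member with a value of 0 in heat stress library 2.

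**Figure D3:**
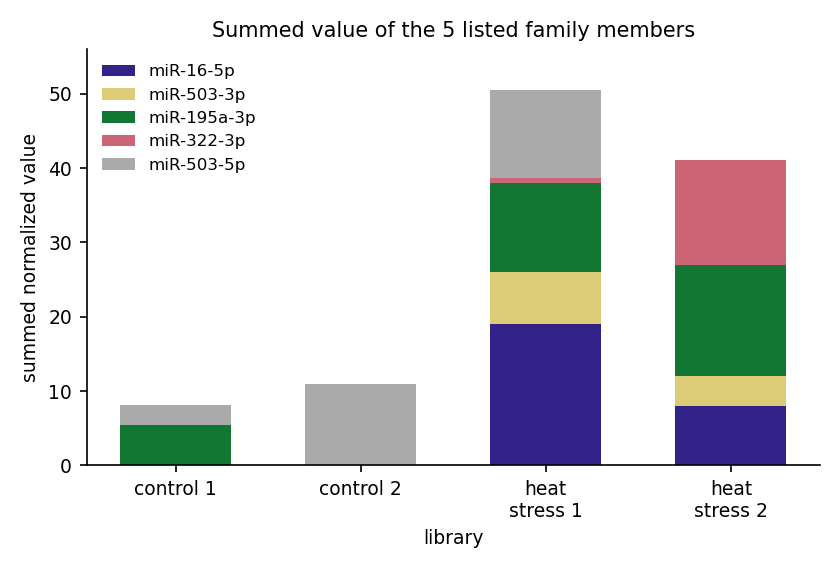
Summed normalized value of the 5 listed members (vertical axis, from 0) in each library, with the share of each member as a coloured block. The control bars reach 8.13 and 11.0 and consist of miR-195a-3p and miR-503-5p, while the heat stress bars reach 50.6 and 41.0.

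The hairpin Mir503 was the member with both arms listed, which allowed its strands to be compared within each library, where depth and scaling are the same for both. The 3p strand made up 0 of 2 reads in control library 1 (allowing a share of up to 100%) and 0 of 14 in control library 2 (up to 21.4%). It made up 9 of 24 in heat stress library 1 (37.5%, exact 95% binomial interval 18.8% to 59.4%) and 4 of 4 in heat stress library 2 (100%, 39.8% to 100%). In controls the reads were of the seed-bearing 5p strand, and in heat stress library 2 they were of the 3p strand. Pooled over the libraries of a group, the 3p share was 0 of 16 reads in controls (up to 18.8%) and 13 of 28 after heat stress (46.4%, 27.5% to 66.1%), intervals that cover counting error and not the spread between libraries. The 3p minus 5p difference in log2(value + 1) was −1.89 and −3.58 in the control libraries and −0.66 and 2.32 in the heat stress libraries. The groups differed by 3.56, with an exact permutation p of 0.333, the smallest this design allows. The size of this difference follows the pseudocount, since miR-503-3p was at 0 in both control libraries and miR-503-5p in heat stress library 2. Among the 46 hairpins with both arms listed and reads in every library, 4 had a higher 3p share in both heat stress libraries than in both controls (8.70%), namely miR-503, miR-30e, miR-532 and miR-615. The difference of the group means, 68.8 percentage points, was the largest of the 46, on the fewest reads of any of these hairpins: 44 over the 4 libraries. MiR-503-3p was listed through the heat stress libraries alone, so its share could not be lower there than in controls. These comparisons of the arms are a description.

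**Figure D4:**
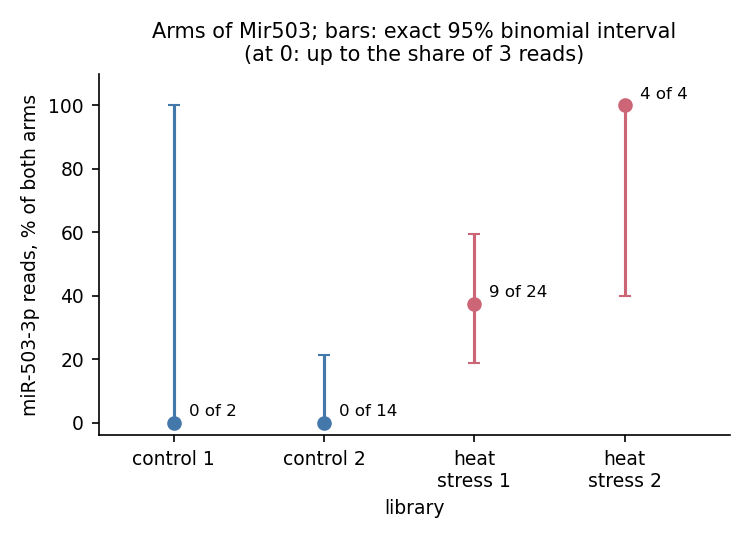
Share of miR-503-3p among the reads of both arms of Mir503 (vertical axis, percent) in each library, with exact 95% binomial intervals (at a share of 0, up to the share that 3 reads would make) and the reads behind each share. The share is 0% in both control libraries, 37.5% in heat stress library 1 and 100% in heat stress library 2.

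Neighbours of the X-linked cluster and a related group were followed from a list taken by name. MiR-351, whose hairpin lies beside Mir503, was the sole other listed hairpin of the cluster, and arms of miR-542, miR-450a and miR-450b were not among the listed miRNAs. The value of miR-351-3p was 51.5 and 82.9 in control libraries and 15.8 and 70.1 in heat stress libraries (log2 change −0.94, adjusted p of 0.793 by limma with Benjamini-Hochberg adjustment). The value of miR-351-5p was 37.9 and 9.39 in controls and 23.7 and 27.0 after heat stress (log2 change 0.39, adjusted p of 0.971 by limma with Benjamini-Hochberg adjustment). Neither arm passed the threshold, and the groups overlapped for both, as they did for miR-503-5p. MiR-103-3p, from the miR-103 and miR-107 group with a related seed, was level across libraries at 19.0, 12.5, 15.8 and 18.0 (log2 change 0.12, adjusted p of 0.984 by limma with Benjamini-Hochberg adjustment). Of the list, 0 of the 3 miRNAs with a row passed the threshold in either direction.

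Because miR-16 is abundant in blood cells and serum, markers of these sources were set beside the members. Of 10 blood and serum miRNAs, 7 were listed, 5 were tested and 0 passed the threshold. MiR-486b-5p had the same values as miR-486a-5p and was left out of the sums. The summed value of the other listed ones was 625 to 1066 in control libraries and 669 to 840 in heat stress libraries. Without miR-486a-5p, which made up most of it, this sum was 72.0 to 133 and 63.2 to 137, respectively. MiR-122-5p, at 90.8 and 33.6 in controls and 20.5 and 76.1 after heat stress, was then mostly the largest part. The exception was heat stress library 1, where miR-142a-5p (26.1) was larger. The red cell miRNA miR-451a had values of 17.6 and 23.5 in controls and 15.02 and 37.0 after heat stress, and the myeloid miR-223-3p and the erythroid miR-144-3p had 1 read each, in heat stress library 1. Of 6 neural miRNAs 4 were listed and 0 passed, with sums of 540 to 714 in controls and 433 to 608 after heat stress. MiR-128-3p, enriched in brain, was the largest part of this sum, at 531, 540, 465 and 382, with both heat stress values under both control values. MiR-9-5p, a miRNA of neural progenitors and astrocytes, was at 122 and 0 in controls and at 138 and 48.0 after heat stress. Its partner arm miR-9-3p went the other way, at 56.9 and 0 in controls and 4.74 and 0 after heat stress. The neuronal miR-124-3p was near its floor throughout, at 4.06, 0, 0 and 3.00. Their part in the values of the family was not tested.

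The miRNAs most like each member were those with the smallest root-mean-square difference in log2(value + 1) over the 4 libraries. For miR-16-5p the nearest was miR-1947-5p (0.055), with values of 0, 0, 20.5 and 8.01, followed by miR-345-3p, miR-181b-5p, miR-365-3p and miR-1843a-3p (0.60). For miR-503-3p the nearest was miR-92b-3p (0.15), followed by miR-1843a-3p, miR-365-3p, miR-345-3p and miR-30b-5p (0.42), so that 3 of the 5 names were the same for both members. For miR-322-3p the nearest was miR-148a-5p (0.43), at 12.01 in heat stress library 2 and 0 elsewhere, followed by miR-532-3p, miR-466m-5p, miR-669m-5p and miR-429-3p (0.51), of which miR-466m-5p and miR-669m-5p have identical values. For miR-195a-3p the nearest was miR-760-3p (0.62), followed by miR-30c-2-3p, miR-145a-3p, miR-1195 and miR-126a-3p (0.90), all at 0 in control library 2. MiR-503-5p had no close match: its nearest was miR-1249-3p at 0.94, followed by miR-365-1-5p, miR-708-5p, miR-5100 and miR-1934-5p (1.28). With 4 libraries and few reads, these distances describe which values are alike in these libraries and nothing more.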

How the data were processed

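Small RNA of 2 control and 2 heat stress libraries was sequenced by the authors, who removed adapters, reads under 17 nt and low-quality reads and, per their methods, aligned reads with Bowtie. The submitters' processing notes list FastQC and BWA. The genome build and miRNA release are not given in the sources used here. The deposited values are a normalized signal: whole multiples of 1 step per library, the inverse of which (0.738, 1.28, 1.27 and 0.999) equalled the median-of-ratios size factor. The columns of the authors' own comparison (fold changes and p-values), and a second table selected by it, were not used.

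From these values, log2(value + 1) was fitted with limma (version 3.58.1, R 4.3.3) with condition as the only term, two-sided, for the 313 miRNAs whose mean value reached 1, with Benjamini-Hochberg adjustment. The step was tested on simulated data whose spread was taken from miRNAs more abundant than the members. That test therefore does not check the calls of members with few reads. The threshold (over 2-fold, unadjusted p under 0.05) follows the study. Intervals, exact tests and read ratios were computed with scipy (version 1.17.1), pandas 2.3.3 and matplotlib 3.10.9. Depth was 43675, 95020, 100933 and 63338 reads on miRNAs, so members rest on 0 to 24 reads per library.

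The members and lists were chosen with earlier results of these data known. MiRNAs named were every member, every listed miRNA sharing bases 2 to 7 of miR-16-5p, listed arms of miR-351, miR-542, miR-450a, miR-450b, miR-103, miR-107, miR-195b and miR-497b, the blood and neural markers, and the 5 miRNAs most like each member. The other miRNAs of the arm comparison (miR-30e, miR-532 and miR-615) and those sharing bases 2 to 7 without a row were named after their values were seen. Sequences were matched by name for 325 of the 389 listed miRNAs. Alternatives were another pseudocount, other filters, library totals, a replicate block, a non-overlap threshold and leaving out each library.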

Additional observations from a re-analysis of the deposited data

How the results depend on the processing

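Over 10 settings of the limma fit, 0 miRNAs had a Benjamini-Hochberg adjusted p under 0.05, with 14 to 52 at an unadjusted p under 0.05 and a smallest adjusted p between 0.0673 and 0.735. Of 77 values under alternatives, 50 kept their direction and side of the threshold or stayed within 1.5 times the count, and 27 did not: 17 counts moved, 5 changes no longer passed, 4 newly passed and 1 reversed. Over all miRNAs, those lower numbered 2 with a pseudocount of 0.1, 3 with library totals and 4 with the replicate block, and 6 were higher with a mean value of at least 10, where no member could be tested. Of the members, 1 was higher with the replicate block, namely miR-16-5p (unadjusted p of 0.0243 by limma). MiR-503-3p kept its change of 2.67 there but no longer passed, with an unadjusted p of 0.0541 by limma. By non-overlap and over 2-fold without a p, 4 members were higher. That rule was met by 33 of all 389 listed miRNAs for higher and 29 for lower, counts over all that were chosen after seeing the data. MiR-322-3p passed the threshold with a pseudocount of 0.1 (5.15) and with library totals (5.62), and these raised the change of miR-16-5p to 6.96 and 7.45 and that of miR-503-3p to 5.77 and 6.25.

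Without 1 library at a time, the miRNAs higher ranged from 8 to 45, those lower from 3 to 23, and members higher from 0 (without control replicate 2) to 3 (without heat stress replicate 1). The log2 change ranged from 3.17 to 4.32 for miR-16-5p, 2.32 to 3.02 for miR-503-3p, 1.16 to 3.84 for miR-195a-3p, 2.37 to 3.91 for miR-322-3p (not tested without heat stress replicate 2) and −2.74 to 0.95 for miR-503-5p, reversed without heat stress replicate 2. The remaining library of a group was then assumed to vary like the other group, and 2 controls at 0 give no spread. The labels do not say whether libraries that share a replicate number were paired. Over miRNAs, the difference between replicates 1 and 2 in controls and that after heat stress had a Pearson r of −0.02. A single correlation of this kind cannot show whether a pairing existed. Count models were not run. The values were whole multiples of 1 step in every library, but a separate automatic criterion for recovered reads was not met in every column. Reads given here are therefore values divided by the step. Members rest on at most 24 reads per library, which limits every value, and the cause of the differences between settings was not tested.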
